A study of Mus musculus with 36 samples.

Results

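The genes of 9 liver enzymes of glucose and nitrogen metabolism were examined for CpG methylation: Pck1, G6pc, Fbp1, Pklr, Cps1, Ass1, Asl, Arg1 and Glul. They are 9 of the 21150 autosomal protein-coding genes of the mouse annotation used here. For each gene, every CpG from 5000 bp before the annotated start to 1000 bp past its end was taken, which gave 3410 of the 18887127 autosomal CpGs. Counts were also summed in windows of 500 bp, and 309 windows of these genes, among 1456902 windows of the autosomes, held at least 5 CpGs and 30 reads in every animal. Cps1, Ass1, Arg1 and Pck1, which are expressed around the portal vein, hold 1944 of the CpGs, and Glul, which is expressed around the central vein, holds 359.

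The data are whole-genome bisulfite sequencing of livers from 24 mice in 8 groups of 3. The parents were C57BL/6N (B6) and C3H/HeN (C3) males and females, all of which had bred and are called sires and dams. The offspring were males and virgin females of both reciprocal crosses, B6C3F1 (B6 dam and C3 sire) and C3B6F1 (C3 dam and B6 sire), from 3 nuclear families per cross. Mating took place when the parents were 10 weeks old, and their litters were weaned when the parents were in week 16. Every animal, parent or offspring, changed from the NIH 31 diet, given up to 17 weeks of age, to the NTP 2000 diet at 18 weeks and was killed at the same age, 20 weeks. The dams had therefore been pregnant and had nursed, and they also differ from the F1 females in being inbred. According to the study's methods, parents came from a supplier's colony and were housed in pairs or singly, and offspring in same-sex groups. Breeding history, genotype, origin and housing therefore cannot be told apart between dams and F1 females. A methylation level is the percent of methylated among all counts, and whole livers were used, so that a level of 50% in every cell and full methylation in part of the cells cannot be told apart.

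Gluconeogenesis makes glucose from lactate, glycerol and amino acids, and its committed steps are catalysed by phosphoenolpyruvate carboxykinase (Pck1), fructose-1,6-bisphosphatase (Fbp1) and glucose-6-phosphatase (G6pc), while liver pyruvate kinase (Pklr) closes glycolysis in the opposite direction. The urea cycle detoxifies ammonia through carbamoyl phosphate synthetase (Cps1), argininosuccinate synthetase (Ass1), argininosuccinate lyase (Asl) and arginase (Arg1). In the liver lobule these functions are zoned: urea synthesis and gluconeogenesis are periportal, whereas glutamine synthetase (Glul), which captures the ammonia that escaped the urea cycle, is made in the last rows of hepatocytes around the central vein.

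The sequences at the gene starts differ in CpG content, which is the substrate of the measurement. Among the 8 genes given here, the 300 bases from 250 bp before the start hold 27 CpGs in Ass1, 18 in Glul, 6 each in Fbp1, Asl and Arg1, 5 in Pck1 and 3 each in G6pc and Pklr, beside a median of 12 over all promoters. A periportal CpG-poor start (Pck1) and the CpG-rich starts of a periportal gene (Ass1) and of the pericentral gene (Glul) are shown on the coding strand, mm9, with each CG in capitals.
Pck1 chr2:172978299-172978598 (+): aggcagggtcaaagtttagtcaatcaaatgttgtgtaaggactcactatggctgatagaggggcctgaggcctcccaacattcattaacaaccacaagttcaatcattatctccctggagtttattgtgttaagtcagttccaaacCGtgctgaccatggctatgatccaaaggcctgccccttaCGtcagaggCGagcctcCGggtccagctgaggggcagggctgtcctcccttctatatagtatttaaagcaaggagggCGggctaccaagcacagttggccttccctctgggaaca
Ass1 chr2:31325477-31325776 (+): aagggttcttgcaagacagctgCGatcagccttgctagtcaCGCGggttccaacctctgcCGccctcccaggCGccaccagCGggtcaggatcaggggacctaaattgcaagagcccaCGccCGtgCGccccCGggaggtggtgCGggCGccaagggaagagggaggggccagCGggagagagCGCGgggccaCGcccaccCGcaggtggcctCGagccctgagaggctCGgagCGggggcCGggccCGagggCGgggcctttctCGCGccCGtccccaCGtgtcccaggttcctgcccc
Glul chr1:155746824-155747123 (+): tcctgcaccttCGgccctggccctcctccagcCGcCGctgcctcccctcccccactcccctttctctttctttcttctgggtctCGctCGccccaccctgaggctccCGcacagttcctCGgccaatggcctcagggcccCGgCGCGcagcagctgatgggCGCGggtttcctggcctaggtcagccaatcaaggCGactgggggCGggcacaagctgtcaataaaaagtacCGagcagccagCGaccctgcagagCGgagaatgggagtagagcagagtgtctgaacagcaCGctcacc

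The CpG-rich starts of Ass1 and Glul were close to unmethylated. The CpGs of the printed Ass1 stretch averaged 0.338% ± 0.330 (SD, n = 24) and those of Glul 0.338% ± 0.279, beside 18.6% ± 7.06 over the 5 CpGs of Pck1. TTACGTCA, the cyclic AMP response element of the Pck1 promoter, was found in Pck1, with both strands searched, 68 bp before the start, and in 0.577% of 21150 promoters. The CpG inside it, at chr2:172978484, was methylated to 18.2% ± 7.98 (SD, n = 24). TGACGTCA was found in 2.30% of promoters and TATAAA in 13.5%, and neither stands in the Pck1, Ass1 or Glul stretch. CCAAT stands in the Glul stretch and was found in 37.7% of promoters. TTACGTCA and TGACGTCA share their last letters but cannot both match at one place. These matches are a description of letters, not of bound sites.

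Each animal had between 365740739 and 619888157 counts over the autosomal CpGs, or 19.4 to 32.8 reads per CpG, and overall methylation was 75 to 77.5%. Over the 9 genes the depth was 24.5 reads per CpG and animal in B6 and 21.5 in C3, with the widest gaps in Arg1 (27.3 against 18.1) and Cps1 (26.1 against 20.1). Promoters of 8 hepatocyte markers (Alb, Ttr, Apoa1, Apob, Tat, Serpina1a, Ahsg, Fgb) averaged 34.6% ± 3.30 (SD, n = 24), and those of 4 Kupffer cell and 4 leukocyte markers averaged 80.8% ± 1.57 and 82.9% ± 1.60. Lower promoter methylation of hepatocyte than of Kupffer cell and leukocyte genes was seen in all 24 livers, whose ranges were 29.9 to 42.4%, 77.9 to 85.1% and 79.9 to 86.1%. Promoters of endothelial, cholangiocyte and stellate markers averaged 54.6%, 44.1% and 23.7%, so that a low promoter does not by itself mark the hepatocyte.

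The enzyme genes were less methylated than the genome at large. Their 309 windows had a median of 65.8%, beside 85.8% over all windows, and 35.3% of them (109 windows) lay below 50%, beside 9.76% of all. Intermediate levels between 20 and 80% were found in 59.5% of the members' windows (184) and in 28.3% of all windows, while 28.8% (89) and 66.8% reached 80% or more. Cps1 stood at one end, with 46 of 49 windows between 20 and 80%, and Glul at the other, with 6 of 27. Gene bodies ranged from 34.7% ± 4.71 (SD, n = 24) in Pck1 to 72.1% ± 2.66 in Pklr, and all 9 lay below the median of 75% over 20199 gene bodies, Pck1 with 7.34% of bodies below it and Pklr with 41%. Fbp1 (48.8%), Arg1 (51.9%), Glul (58.3%), G6pc (58.5%), Cps1 (58.7%), Ass1 (62.0%) and Asl (66.5%) fell between.

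**Figure D1:**
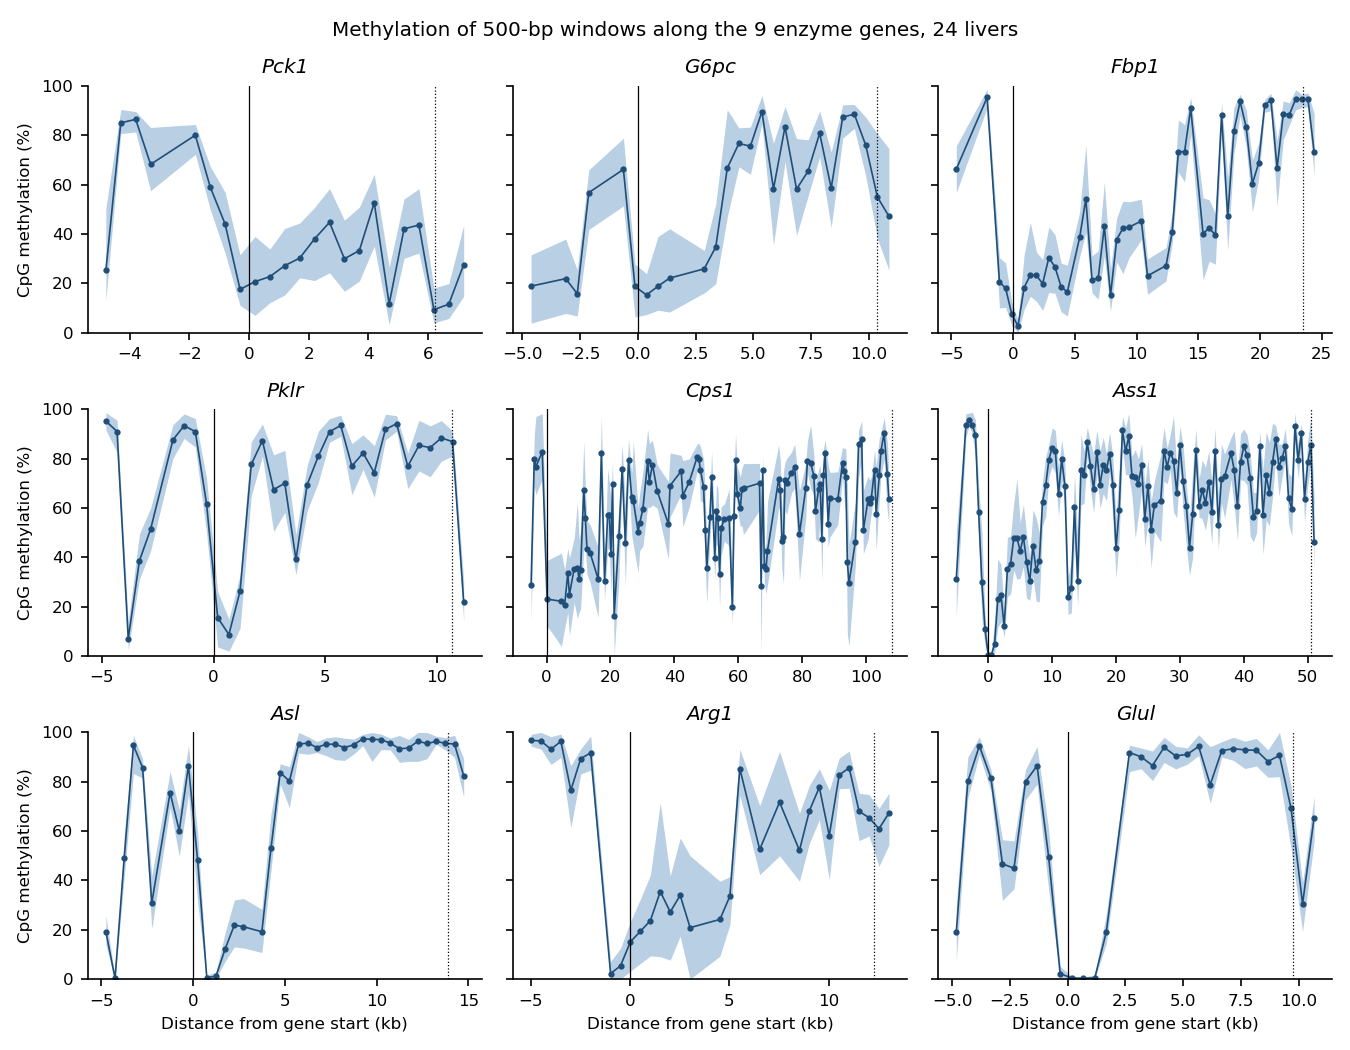
Methylation of 500-bp windows (percent, vertical axis) against the distance of the window's centre from the gene start (kb, horizontal axis) in the 9 genes. Only windows with at least 3 CpGs are shown. Points are means of 24 livers, the shaded band runs from the lowest to the highest animal, and the solid and dotted vertical lines mark the start and the end of the gene; Glul returns to a high level 2676 bp after its start, while the low stretch of Ass1 runs to 8523 bp and that of Cps1 to 11650 bp.

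Among the gluconeogenic genes, Pck1 (chr2:172978549-172984774, + strand, mm9) had the lowest gene body. Its start window, which holds coding exons 1 and 2 in part, was at 20.7% (6.99 to 39.0% in single animals), and windows stayed below 50% until 4201 bp after the start. A second low part lay at the end of the gene, where the window at chr2:172984501-172985000 had 9.33% (3.94 to 18.1%). Methylation over the 1000 bp past the end was 12.5% ± 3.54 (SD, n = 24).

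G6pc (chr11:101228875-101239217, + strand) had its lowest window just inside the gene, at chr11:101229001-101229500 with 15.3% (7.33 to 24%), beside 18.7% (6.35 to 27.7%) in its start window, chr11:101228501-101229000. The level was 22.5% from 500 to 2000 bp after the start, 48.0% ± 3.93 from 2000 to 5000 bp and 76.7% ± 4.47 beyond. It also had a low stretch before the promoter, of 24.9% ± 3.03 between 5000 and 2000 bp upstream. Fbp1 (chr13:62966113-62989642, − strand) fell to 2.71% (0 to 4.96%) in the window at chr13:62989001-62989500, which holds 25 CpGs, beside 7.48% (2.92 to 12.4%) in its start window, chr13:62989501-62990000, and was still at 20.4% ± 3.33 from 2000 to 5000 bp after the start. A predicted gene, Gm17367 (chr13:62988822-62988961), lies inside Fbp1.

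Pklr (chr3:88940064-88950706, + strand), the glycolytic member, had the shortest low stretch of the carbohydrate genes. Its start window was at 15.5% (3.61 to 26.0%), windows reached 50% by 1686 bp after the start, and the rest of the gene beyond 5000 bp was at 83.9% ± 2.98 (SD, n = 24). Its lowest window was upstream, at chr3:88936001-88936500 with 6.94% (2.42 to 13.7%). The gene Hcn3, on the other strand, overlaps the end of Pklr.

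Of the urea cycle genes, Cps1 (chr1:67169600-67277833, + strand), which makes the carbamoyl phosphate that enters the cycle, is long and poor in CpGs, with 0.570 per 100 bp over its region. Its start window had 23% (12.2 to 38.7%) over 4 CpGs. Among windows of at least 3 CpGs, the first at 50% or more lay 11650 bp into the gene. Sparser windows were left out, and 9 windows of that size lay between -1350 and 11650 bp. A lower window, of 16.3% (0 to 31.9%) over 5 CpGs, lay at chr1:67190501-67191000. Ass1 (chr2:31325727-31376192, + strand), which condenses citrulline and aspartate, is CpG-rich at its start, where the window of 36 CpGs had 0.334% (0 to 0.839%). Its level then rose through 8.78% ± 2.73 between 500 and 2000 bp and 32.2% ± 3.94 between 2000 and 5000 bp to 68.1% ± 3.6 beyond.

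Arg1 (chr10:24635014-24647276, − strand), which releases urea, had 15.2% (3.24 to 23.4%) at its start and its lowest window just before it, at chr10:24648001-24648500 with 2.21% (0 to 7.14%). It stayed at 25.5% ± 3.28 from 2000 to 5000 bp and reached 67.9% ± 2.48 beyond. Asl (chr5:130487128-130501002, − strand), which cleaves argininosuccinate, differed in that the window at the annotated start was at 86.4% (75 to 94.7%). Its CpG-dense low part lay 500 to 2000 bp inside the annotated gene, with 2.56% ± 0.646 over 45 CpGs, where another annotated transcript starts. The window just inside the annotated Asl start, chr5:130500501-130501000, lies upstream of the transcript by which windows were placed. The lowest window of the Asl region, with 0.262%, belongs to the start of the neighbouring gene Crcp, at -4158 bp relative to the Asl start.

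Glul (chr1:155747074-155756853, + strand), the pericentral member, had a narrow low region. Its start window of 42 CpGs was at 0.421% (0.0850 to 1.09%), the next at chr1:155747501-155748000 at 0.290% (0 to 0.837%), and the window centred 2676 bp after the start was again above 50%. The start is shared with 5830403L16Rik, which begins 264 bp downstream on the other strand. From 2000 to 5000 bp Glul was at 89.8% ± 1.69 (SD, n = 24) and beyond 5000 bp at 90.2% ± 1.03.

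The contrast between the zones depended on the part of the gene. In the first 2000 bp of the gene, Glul was at 2.83% ± 0.690 and the 4 periportal genes at a mean of 18.6% ± 3.37, so that Glul was lower by a mean of 15.8 points (n = 24, range 10.9 to 23.4 points). Of the periportal genes Ass1 was close to Glul there, at 4.59% ± 1.40 (2.31 to 8.41%, overlapping the 1.83 to 4.38% of Glul), while Arg1 was at 21.1% ± 5.05, Cps1 at 23% ± 6.95 and Pck1 at 25.7% ± 4.44. In the rest of the gene body the order was reversed: Glul was at 90.1% ± 1.09 and the periportal mean at 56.1%, a difference of 33.9 points ± 2.98 that ranged from 28.4 to 39.4 points and had the same sign in all 24 livers. The periportal genes themselves ranged there from 40.8% ± 5.81 in Pck1 through 59.0% ± 1.81 in Cps1 and 59.2% ± 2.89 in Arg1 to 65.6% ± 3.59 in Ass1. Asl, left out of the periportal list of the rule, was at 82.8% ± 1.24, nearer to Glul than to the other urea cycle genes.

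Over whole gene bodies, which hold both parts, Glul was at 58.3% and the periportal mean at 51.8%. That difference, of 6.48 points ± 2.90, turned to -0.18 points when the percents of the CpGs were averaged without weighting by reads, so no order between the zones is read from it. Over promoters, from 1000 bp before to 500 bp after the start, Glul was lower by 12.5 points (7.32% against 19.8%). One pericentral gene beside 4 periportal genes gives no test of zonation, and the values describe these 5 genes. Whole liver holds both zones, and the part that each zone has in a level was not tested.

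**Figure D2:**
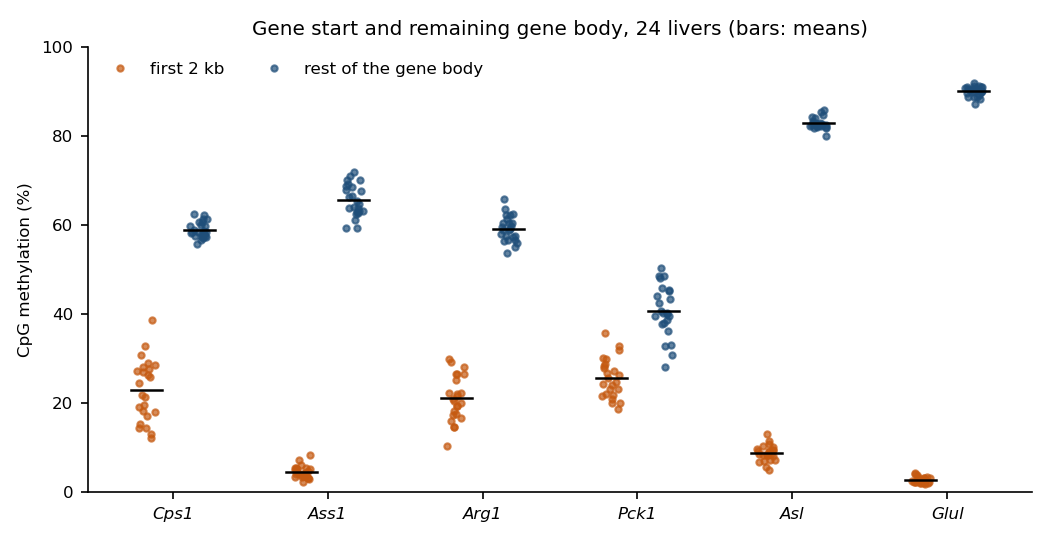
Methylation (percent, vertical axis, from 0 to 100) of the first 2000 bp of the gene (orange) and of the remaining gene body (blue) in 4 periportal genes, Asl and Glul. Each point is one of 24 livers and each bar their mean; Glul has the lowest mean at the start, 2.83%, and the highest remaining gene body, at 90.1%.

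Promoters spread more widely than their zone or pathway. Ass1 had 5.41% ± 1.49 (SD, n = 24), with 27.1% of 20333 promoters below it, Glul 7.32% ± 1.37, Fbp1 7.51% ± 1.78 and Arg1 9.73% ± 2.71. Pck1 (27.0% ± 4.79), G6pc (30.8% ± 3.74) and Cps1 (37.0% ± 6.27) lay above the median promoter of 16.1%, as did Pklr at 53.9% ± 3.23 and Asl at 61.7% ± 3.11. Glul and Fbp1, neighbours in this order, overlapped over their ranges in the 24 livers (5.23 to 10.2% and 4.03 to 12.4%), as did G6pc (24.4 to 36.6%) and Cps1 (25.0 to 50%). The Asl value was taken around the annotated start. It leaves out the part 500 to 2000 bp inside the gene, at 2.56%, where another annotated transcript starts.

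Strain was compared between the 6 B6 and the 6 C3 parents with limma's test. Windows are called here where the strains were 20 points or more apart and the p, adjusted by the Benjamini-Hochberg method, lay below 0.05. One of 309 windows of the members was called, beside 0.494% of all windows. It lies in intron 5 of Cps1, at chr1:67194001-67194500, with 8 CpGs and 6 listed single-nucleotide variants between the strains. The 6 B6 livers had 52.9, 56.8, 61.1, 58.7, 58.4 and 55.3%, and the 6 C3 livers had 28.0, 28.6, 32.1, 36.6, 29.0 and 28.1%. The strains did not overlap, and the difference was 26.8 points (57.2% ± 2.87 against 30.4% ± 3.39, SD, n = 6; log2 difference 1.58, SE 0.181, limma adjusted p = 1.37e-07). Leaving out any one animal left it between 25.8 and 28.1 points. No window of the members was called with windows shifted by 250 bp, or with at least 100 reads in every animal, which leaves this window out because one animal had 64. The 12 F1 livers averaged 48.0%, at 0.658 ± 0.256 (SD, n = 12) of the way from C3 to B6, from 0.254 to 1.04 in single animals.

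The largest strain difference at a single CpG lay at chr1:67263993, in intron 32 of Cps1, 94393 bp after the start. It was methylated to 87.2% ± 4.76 in B6 (79.1 to 93.1% in 6 animals, 206 of 237 reads) and to 10.1% ± 5.28 in C3 (0 to 13.9%, 26 of 243 reads), with no overlap. B6C3F1 animals had 48.6% ± 6.45 and C3B6F1 animals 47.6% ± 11 (n = 6 each), between the parents. A beta-binomial Wald test gave a difference of 75.9 points, from reads pooled over animals, and an unadjusted p = 5.42e-105. The 82 bases around it, chr1:67263953-67264034 (+ strand, mm9), are shown because variants lie beside the CpG, which is in capitals at position 41 counted from the 5′ end.
Cps1 intron 32: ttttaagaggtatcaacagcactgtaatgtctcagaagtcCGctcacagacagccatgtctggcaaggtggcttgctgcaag
The strains differ in it by C40T, the base before the CpG, and C43T, given as the base of B6, the position and the base of C3.

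The CpGs of the same intron at chr1:67263916 and chr1:67263793 were also higher in B6, by 35.7 and 37.6 points (beta-binomial Wald p = 5.88e-14 and 4.22e-12, unadjusted). Their window, chr1:67263501-67264000, holds 3 CpGs and was not tested under the minimum of 5. With a minimum of 2 CpGs it was called, at 51.5 points (limma adjusted p = 3.41e-14). At a Wald p below 1e-05, which is unadjusted, 13 of 3337 CpGs of the members differed, 6 higher and 7 lower in B6, beside 0.497% of all CpGs tested. Of these, 8 lay in Cps1, 4 in Pklr and 1 in G6pc.

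Without the minimum of 20 points, 34 of 309 windows of the members passed, 11 higher and 23 lower in B6, beside 6.63% of all windows, of which 34066 were higher and 62455 lower. Of the 34, 16 missed the adjusted p when some single animal was left out, among them 5 of 10 in Ass1, 2 of 6 in Cps1 and 2 of 7 in Pklr. Those in Cps1 went both ways, with 4 higher and 2 lower in B6, and beside the called window reached 18.5 points (chr1:67188501-67189000, intron 2, adjusted p = 0.000588) and -18.6 points (chr1:67248501-67249000, intron 25, adjusted p = 2.13e-06). The 7 in Pklr were all lower in B6. The Pklr window at chr3:88942501-88943000 in intron 2 had 56.9, 64.5, 55.4, 50.4, 56.8 and 55.1% in the 6 B6 livers and 67.9, 77.6, 75.6, 81.5, 73.1 and 79.6% in the 6 C3 livers. The strains did not overlap, and they differed by -19.4 points (log2 difference -1.26, SE 0.172, limma adjusted p = 3.51e-06).

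Of the other Pklr windows, 4 spanned coding exons 6 to 10, and summed over its gene body Pklr was at 68.0, 69.4 and 71.8% (lowest, median, highest) in B6 and at 73.0, 75 and 77.1% in C3. The ranges did not overlap. The difference was -5.12 points (limma adjusted p = 0.000275) against a median of -0.924 over all gene bodies, of which 27.5% passed. Leaving out single animals kept that call for Pklr.

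Ass1 had 10 windows past the adjusted p, 9 of them lower in B6 by 4.83 to 10.4 points and all 9 between 17023 and 48523 bp after the start. Its whole gene body differed by -2.28 points (adjusted p = 0.118). No variant between the strains is listed in the Ass1 region, and the nearest lies 492893 bp away. The members without any listed variant in their region, Pck1, Fbp1, Ass1, Asl and Glul, had 17 of 201 windows past the adjusted p, and those with variants, Cps1 (579), Arg1 (83), G6pc (22) and Pklr (15), had 17 of 108. Of the members' windows that hold a listed variant themselves, 11 of 72 (15.3%) passed, beside 14.3% of all windows that hold one. Of all windows with no listed variant within 10 kb, a class set by distance and not by gene, 2.92% passed.

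In the first 2000 bp of the gene, windows of Pck1, Arg1, Asl, Fbp1 and G6pc were higher in B6, and a window of Pklr was lower. In Pck1 the start window (chr2:172978501-172979000) differed by 9.24 points (limma adjusted p = 0.0344) and in Arg1 the start window by 8.32 points (adjusted p = 0.0110). In Asl a window just inside the annotated start, upstream of the transcript by which windows were placed, differed by 10.1 points (adjusted p = 0.0427). In Fbp1 a window of intron 1 differed by 7.73 points (adjusted p = 0.0366), and in G6pc a window of intron 1 by 14.1 points (adjusted p = 0.0313). Each of the 5 missed the adjusted p when some single animals were left out, any one of 5 for Pck1, 2 for Arg1, 7 for Asl, 6 for Fbp1 and 6 for G6pc. The window just before the G6pc start went the other way, by -15.1 points (adjusted p = 9.66e-05). So did the window of Pklr intron 2 at chr3:88941501-88942000, by -8.42 points (adjusted p = 0.0180, lost without any one of 2 animals).

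Of the promoters, Cps1 was called between the strains at a minimum of 10 points, beside 1.98% of all promoters. It had 36.2, 40.7, 50, 39.2, 37.1 and 48.6% in the 6 B6 livers and 36.6, 31.7, 25.0, 27.9, 36.4 and 32.9% in the 6 C3 livers. The ranges overlapped slightly, and the difference was 10.2 points (42.0% against 31.8%, limma adjusted p = 0.0142) over 5 CpGs. It was lost without B6 male 3 (8.28 points, adjusted p = 0.0620), B6 female 3 (8.46 points), C3 male 3 (8.68 points) or, by the minimum of 10 points, C3 female 1. The promoter of Arg1 passed the adjusted p at 3.66 points (adjusted p = 0.0447), which was lost without any one of 12 animals (highest adjusted p 0.171, without C3 female 3). Hepatocyte marker promoters moved in the same direction, with 35.8% ± 3.20 in B6 and 32.1% ± 1.64 in C3 (n = 6 each), whereas the 5 other lists were lower in B6: Kupffer cell 79.8% against 81.8%, leukocyte 81.5% against 84.1%, endothelial 53.9% against 55.5%, cholangiocyte 43.1% against 45.2% and stellate 22.4% against 24.8%. Their part in the strain differences, higher or lower in B6, was not tested.

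**Figure D3:**
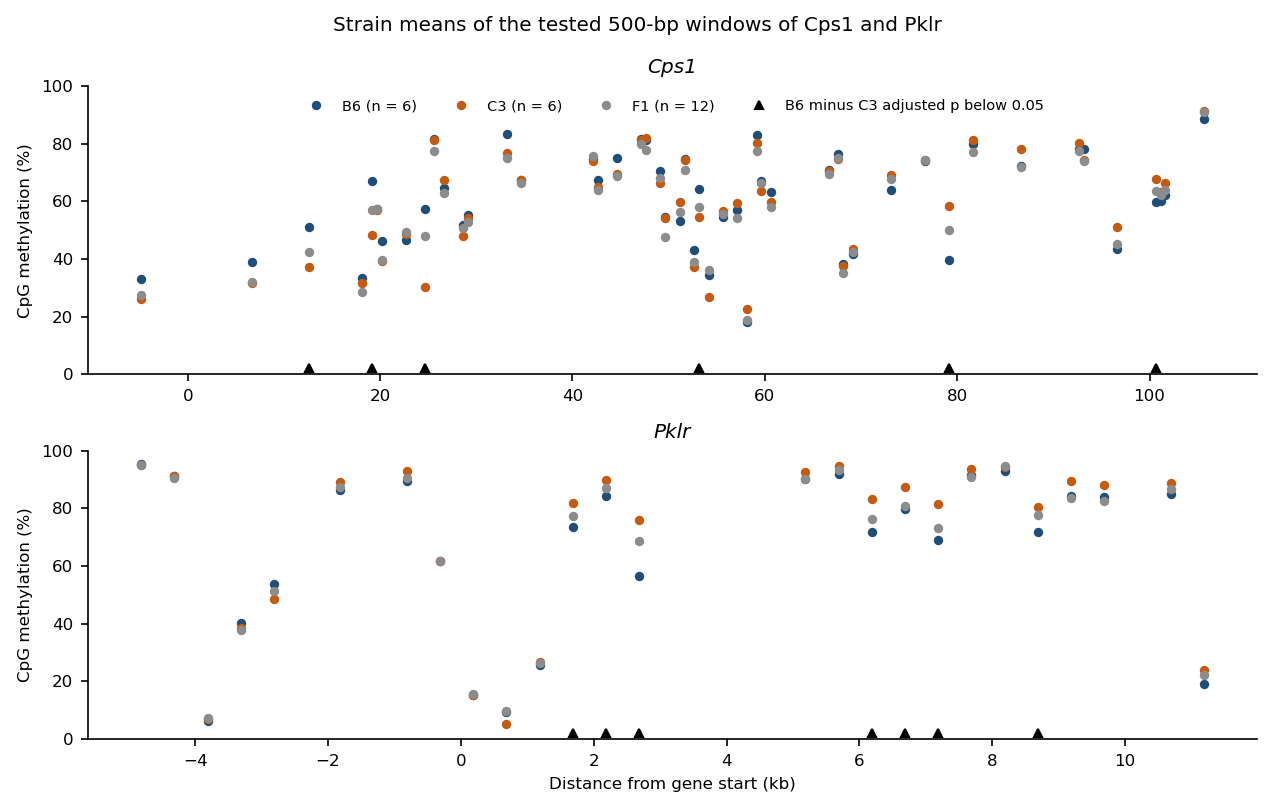
Methylation (percent, vertical axis) of the tested 500-bp windows of Cps1 and Pklr against the distance from the gene start (kb, horizontal axis), as means of 6 B6 (blue), 6 C3 (orange) and 12 F1 (grey) livers. Black triangles mark windows with an adjusted p below 0.05 between the strains; they lie on both sides in Cps1, and the 7 in Pklr are all lower in B6.

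Sires and dams of both strains were compared, and in this contrast sex cannot be told apart from the dams' pregnancy and nursing. One window of the members was called, beside 0.104% of all windows. It lies past the end of G6pc, at chr11:101239501-101240000, and its 7 counted CpGs stand in the stretch shown, chr11:101239546-101239823 (+ strand, mm9, CG in capitals), which holds 8 CGs, 1 of them without counts in the data.
G6pc past the end: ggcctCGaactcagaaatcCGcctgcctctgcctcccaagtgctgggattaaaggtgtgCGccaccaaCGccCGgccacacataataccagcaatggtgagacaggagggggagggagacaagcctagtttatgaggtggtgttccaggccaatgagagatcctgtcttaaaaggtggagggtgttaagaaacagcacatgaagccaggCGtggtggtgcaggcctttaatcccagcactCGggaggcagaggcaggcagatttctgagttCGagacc
The 40 bases around 4 of its 7 CpGs occur 54 to 5897 times in the autosomes, whereas the 100 bases around each occur once.

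In this G6pc window the B6 sires had 45.2, 36.1 and 38.1% and the C3 sires 39.2, 52.0 and 43.6%. The B6 dams had 62.7, 51.3 and 50.3% and the C3 dams 73.3, 63.8 and 74.7%. One C3 sire was above the lowest dams, and the difference was -20.3 points (42.4% ± 5.83 against 62.7% ± 10.4, SD, n = 6; log2 difference -1.21, SE 0.201, limma adjusted p = 0.000436). The adjusted p stayed between 0.000119 and 0.00343 when single animals were left out, but the difference fell under 20 points without B6 male 2 (-19.4), B6 male 3 (-19.9), B6 female 1 (-18.3), C3 male 1 (-18.9), C3 male 3 (-19.98), C3 female 1 (-19.6) or C3 female 3 (-19.3). With at least 100 reads in every animal it is left out, because one animal had 72. Within C3 the window was called as well, at -25.7 points (adjusted p = 0.0030) beside 0.154% of all windows, and within B6 it was at -14.9 points (adjusted p = 0.348). The interaction of strain and sex at this window was 10.8 points (adjusted p = 0.944). Of the offspring, the B6C3F1 males had 29.9, 44.9 and 25.4% and the C3B6F1 males 36.6, 38.4 and 37.5%. The B6C3F1 females had 44.9, 49.0 and 38.8% and the C3B6F1 females 44.2, 50 and 62.3%. The F1 sexes overlapped, and this window did not pass the adjusted p between F1 males and F1 females or between dams and F1 females.

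G6pc was lower in sires along the gene. Of its 15 tested windows, 5 passed the adjusted p, all lower in sires, and 14 of 15 differences were below 0. Over all windows, 0.512% passed with a lower level in sires, and 62.3% of the differences were above 0. Of the 5, 3 missed the adjusted p when some single animal was left out (highest adjusted p 0.0575, without C3 male 2). The window holding coding exon 2, chr11:101232001-101232500, differed by -15.7 points (adjusted p = 0.0030), and within it the CpG at chr11:101232469 by -31.9 points (beta-binomial Wald p = 4.13e-08, unadjusted). As means of animals that CpG was at 25.6% ± 4.80 in sires and 60.8% ± 12.1 in dams (n = 6 each), whereas the test's difference pools reads. That CpG was the only one of 3387 CpGs of the members at this threshold, beside 0.12% of all.

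Summed over the gene body, G6pc had 53.5, 56.2 and 57.4% in B6 sires, 55.7, 58.9 and 57.3% in C3 sires, 63.1, 62.7 and 61.7% in B6 dams and 63.2, 62.9 and 62.7% in C3 dams. Every sire was below every dam. The difference was -6.21 points (56.5% ± 1.84 against 62.7% ± 0.549, n = 6; limma adjusted p = 0.000237), beside a median of 0.412 points over all gene bodies, of which 11.2% passed. It was -6.82 points in B6 (adjusted p = 0.00574) and -5.61 points in C3 (adjusted p = 0.0214). The gene body shares CpGs with the windows above and was added after they had been seen, so its p is no separate evidence. F1 males had 53.2, 55.9 and 58.1% (lowest, median, highest) and F1 females 57.6, 58.8 and 61.3%, overlapping, with a difference of -3.71 points (adjusted p = 0.112).

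Sire and dam differences were also found in other members. Past the adjusted p alone there were 11 of 309 windows, beside 0.974% of all windows, and 10 of them were lower in sires: the 5 of G6pc, 2 each of Ass1 and Cps1, and 1 of Fbp1 (chr13:62973001-62973500, intron 3, -11.6 points, adjusted p = 0.0109). Both Cps1 windows and 1 of the 2 of Ass1 missed the adjusted p when some single animal was left out. The one higher in sires, beside 0.462% of all, was in intron 1 of Fbp1 (chr13:62987001-62987500, 8.29 points, adjusted p = 0.0361, lost without any one of 10 animals). The Cps1 gene body was lower by 2.83 points in sires (58.1% ± 2.05 against 61.0% ± 1.13, n = 6; adjusted p = 0.0386), a call that was lost without any one of 8 animals (highest adjusted p 0.116, without B6 male 2). No promoter of the members was called, beside 0.231% of all, and at an unadjusted limma p below 0.05 there were 0 of 9, beside 8.57%.

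Within each strain, 3 windows passed the adjusted p in B6, beside 0.264% of all windows, and 3 in C3, beside 0.525%. In B6 they were 2 windows of Ass1 intron 13 and 1 of G6pc intron 2, and none reached 20 points, beside 0.0997% of all windows. In C3 they were 2 of G6pc and 1 of Fbp1. In B6 the 2 windows of Ass1 (chr2:31366001-31366500 and chr2:31369001-31369500) and that of G6pc missed the adjusted p without any one of 3, 12 and 4 animals. In C3 the G6pc window at chr11:101232001-101232500 and the Fbp1 window missed it without any one of 5 animals each, whereas the window past the end of G6pc passed whichever animal was left out. No window of the members passed the strain by sex interaction in limma's test, beside 0.00151% called, and 23 of 309 had an unadjusted p below 0.05, beside 5.42% of all. The 24 livers are plotted by group for the gene bodies of Ass1, G6pc and Pklr and for the called Cps1 window.

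**Figure D4:**
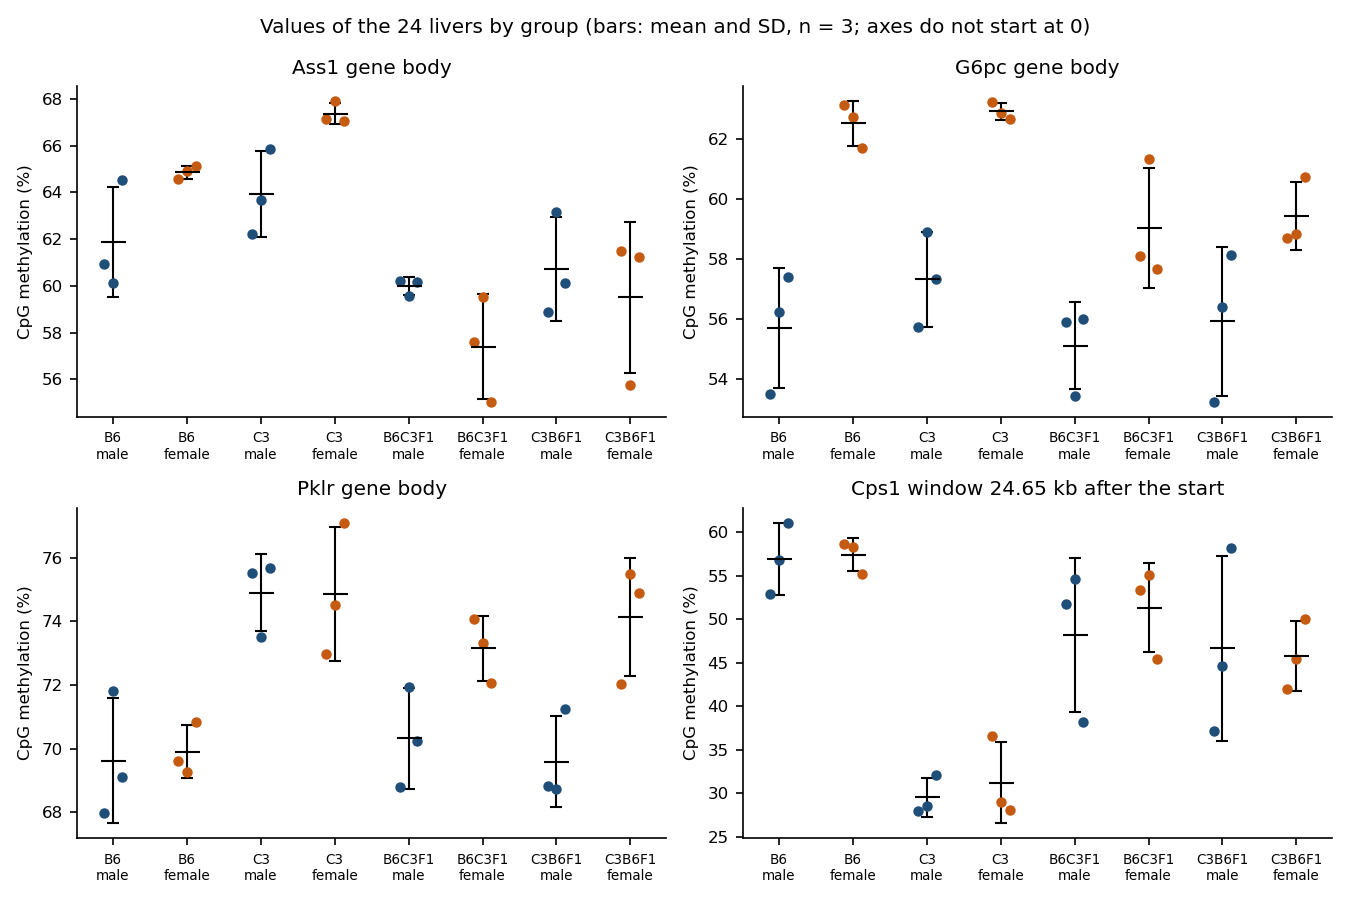
Methylation (percent, vertical axes, not starting at 0) of the gene bodies of Ass1, G6pc and Pklr and of the Cps1 window in intron 5, for each liver of the 8 groups. Points are single livers, orange in females and blue in males, and bars give mean and SD (n = 3); Ass1 is highest in the 6 dams together, at 66.1%, G6pc is lower in the 6 sires than in the 6 dams, and Pklr and the Cps1 window separate B6 from C3.

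Between F1 males and F1 females no window of the members was called, beside 0.051% of all windows, and 3 passed the adjusted p alone, beside 0.343%. Over the autosomes 4249 of the 5003 windows that passed were lower in males, as were all 3 of the members. They lay in Pklr (chr3:88947001-88947500, coding exons 8 and 9, -9.58 points, adjusted p = 0.00893), in G6pc (chr11:101237001-101237500, intron 4, -14.9 points, adjusted p = 0.0404, lost without any one of 8 animals) and in Asl (chr5:130488501-130489000, coding exons 13 and 14, -4.05 points, adjusted p = 0.00578). None of the promoters and none of the gene bodies was called, beside 0.143% and 0.639% of all. At an unadjusted limma p below 0.05 were 41 of 309 windows, beside 7.02% of all windows, 1 of 9 promoters, beside 6.29%, and 3 of 9 gene bodies, beside 8.31%. At an adjusted p of 0.0725 the Pklr gene body was at -3.69 points.

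Dams and virgin F1 females were compared because they differ in whether they had bred. No window of the members reached 20 points, beside 0.0198% of all windows, but 13 passed the adjusted p. All 13 were in Ass1 and all were higher in dams, by 8.52 to 16.6 points, whereas over the autosomes 463 windows passed with a higher level in dams, which is 0.0318% of those tested, and 2168 with a lower level. The 13 windows lay between 4023 and 43523 bp after the start, in introns 1, 5, 6, 9, 10, 12 and 13 and in coding exons 4 and 6. In Ass1 83 of 88 windows had a difference above 0, with a median of 5.89 points. Over the 309 windows of the members 206 did, 83 of them in Ass1, with a median of 1.33 points beside -0.368 over all windows, of which 40% were above 0. The members were not alike: Cps1 had 37 of 49 above 0, Pck1 15 of 20 and G6pc 12 of 15. Arg1 had 9 of 18, Fbp1 14 of 34, Pklr 12 of 26, Asl 15 of 32 and Glul 9 of 27. Between sires and F1 males 79 of 88 Ass1 windows had a difference above 0 (median 2.30 points). There, 213 of the members' 309 windows did, with a median of 1.04 points beside 0.0299 over all windows, of which 50.9% were above 0.

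Of the 13 windows higher in dams, chr2:31339001-31339500 in intron 5 of Ass1 had the largest difference. It holds 6 CpGs in the stretch shown, chr2:31339156-31339420 (+ strand, mm9, CG in capitals).
Ass1 intron 5: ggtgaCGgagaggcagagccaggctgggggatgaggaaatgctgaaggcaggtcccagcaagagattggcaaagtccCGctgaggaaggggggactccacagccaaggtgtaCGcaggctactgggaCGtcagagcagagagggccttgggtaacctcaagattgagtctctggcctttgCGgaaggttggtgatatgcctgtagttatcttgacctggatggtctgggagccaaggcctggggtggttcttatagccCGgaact
The B6 dams had 64.3, 68.4 and 65.6% and the C3 dams 73.2, 73.1 and 73.4%. The B6C3F1 females had 56.0, 48.6 and 49.1% and the C3B6F1 females 69.4, 46.7 and 48.8%. One C3B6F1 female was above the B6 dams, and the other 5 F1 females were below every dam. The difference was 16.6 points (69.7% ± 4.14 against 53.1% ± 8.59, SD, n = 6; log2 difference 1.00, SE 0.181, limma adjusted p = 0.00570). In the sires this window was at 61.3% ± 5.28 and in the F1 males at 57.4% ± 6.22.

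At single CpGs, 2 of Ass1 passed the beta-binomial Wald test at 1e-05, beside 0.0224% of all CpGs, with unadjusted p = 5.79e-06 and 8.07e-06. The first, chr2:31339268 in the stretch above, was at 78.7% ± 5.96 in dams and 55% ± 12.9 in F1 females, and the second, chr2:31336151 in intron 4, at 92.8% ± 4.76 and 74.4% ± 5.01 (n = 6 each). No other member held such a CpG. Of the 13 windows, 7 missed the adjusted p when some single animal was left out. The window at chr2:31343501-31344000 missed it without any one of 18 of the 24 animals, and that at chr2:31329501-31330000 without any one of 16.

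Summed over 802 CpGs of the gene body, Ass1 had 64.6, 64.9 and 65.1% in B6 dams and 67.1, 67.9 and 67.1% in C3 dams. The B6C3F1 females had 57.6, 59.5 and 55% and the C3B6F1 females 61.5, 55.8 and 61.2%. Every dam was above every F1 female, and the difference was 7.66 points (66.1% ± 1.42 against 58.5% ± 2.75, SD, n = 6; log2 difference 0.47, SE 0.067, limma adjusted p = 0.00272). By size it was the 6th highest of 20199 gene bodies, whose median was -0.176 points and of which 1.64% passed, and it stayed between 6.73 and 8.20 points when single animals were left out (adjusted p from 0.00213 to 0.0106). The gene body holds the CpGs of the windows above and was added after they had been seen, so its p and rank are no separate evidence.

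The Ass1 gene body of sires was at 60.1, 63.0 and 65.9% (lowest, median, highest) and that of F1 males at 58.9, 60.1 and 63.2%, overlapping, with a difference of 2.55 points (adjusted p = 0.790). The difference of both differences, dams less F1 females against sires less F1 males, was 5.11 points for the gene body (adjusted p = 0.129). No window of the members passed it, beside 0.0185% called, and 49 of 309 had an unadjusted limma p below 0.05, beside 7.09% of all. The dams are also the dams of the sire and dam contrast, in which Ass1 differed by -3.21 points (adjusted p = 0.0597). Gene bodies of Cps1 (3.15 points, adjusted p = 0.0681) and G6pc (3.49 points, adjusted p = 0.0653) were higher in dams without passing the test, Pck1 was at 5.05 points (adjusted p = 0.241), and Glul at -0.64 points (adjusted p = 0.903).

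Hepatocyte marker promoters were at 32.8% ± 1.36 in dams (31.3 to 34.7%) and at 35.7% ± 4.90 in F1 females (30.2 to 42.4%). The Kupffer cell list was at 80.5% ± 2.66 and 80.5% ± 0.952, the leukocyte list at 82.3% ± 2.25 and 82.5% ± 1.05, the endothelial list at 54.5% and 54.6%, the cholangiocyte list at 44.4% and 43.8% and the stellate list at 24.3% and 23.8%. The part of cell composition in the Ass1 difference was not tested.

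**Figure D5:**
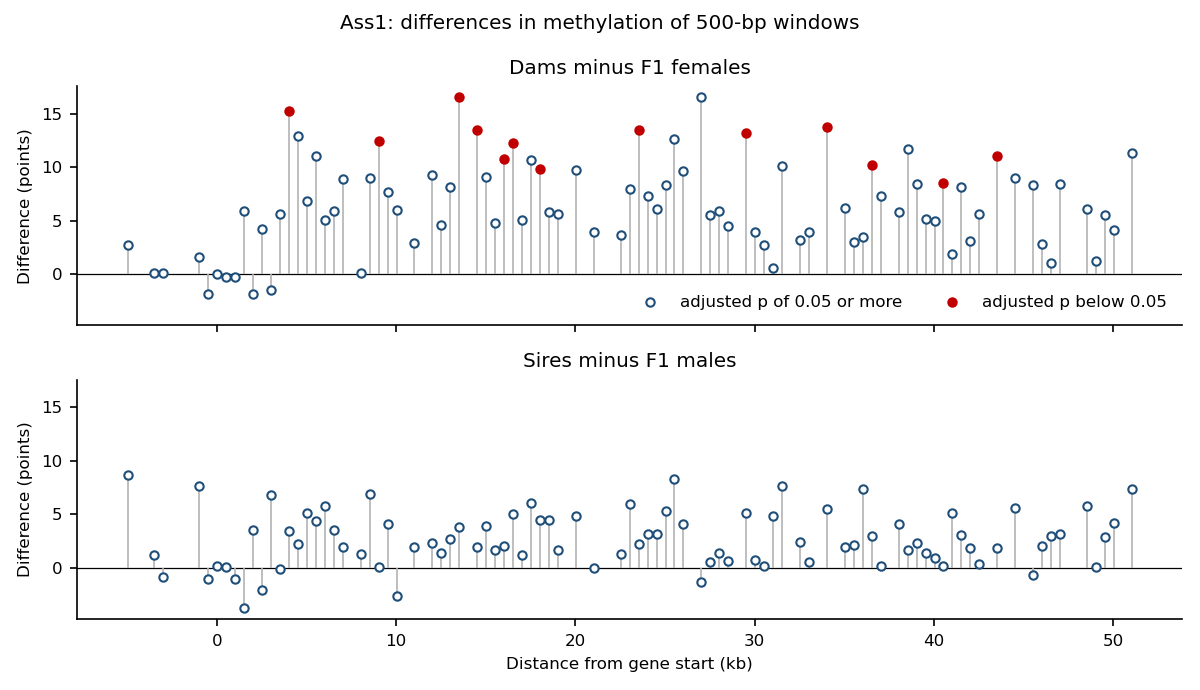
Difference in methylation (percentage points, vertical axis) of the tested 500-bp windows of Ass1 against the distance from the gene start (kb, horizontal axis), for dams minus F1 females (top) and sires minus F1 males (bottom). Filled red points mark an adjusted p below 0.05; there are 13 in the upper panel, all above 0 and between 8.52 and 16.6 points, and none in the lower panel.

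No window of the members was called or passed the adjusted p between sires and F1 males, beside 0.00227% called, or between B6C3F1 and C3B6F1, beside 0.000686%. At an unadjusted limma p below 0.05 there were 40 of 309 between sires and F1 males, beside 6.26% of all windows, and 22 between the crosses, beside 6.69%. No promoter was called between dams and F1 females or between the reciprocal crosses, beside 0.0492% and 0.0148%, and 1 promoter in each had an unadjusted limma p below 0.05, beside 6.38% and 9.5%. Glul had 1 window past the adjusted p in any of these comparisons, at chr1:155742001-155742500, at -4824 bp relative to its start, lower by 8.02 points in B6 than in C3 (adjusted p = 0.0290, lost without any one of 7 animals). The means of its gene body lay between 57.8 and 59.2% in sires, dams, F1 males and F1 females, and single livers between 54.1 and 62.4%. Between B6C3F1 and C3B6F1 the Glul gene body differed by -3.17 points (limma adjusted p = 0.291), beside a median of -0.384 over all gene bodies.

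Further enzymes, transporters and regulators of the same pathways and of both zones, a list of 47 genes, were read for comparison. Pfkfb1 of the list was not tested, and the other genes had 2052 tested windows. Between the strains 4 of their windows were called higher and 6 lower in B6, beside 0.494% of all windows. They were in Agxt (alanine-glyoxylate aminotransferase, 27.8 points), Slc1a2 (a glutamate transporter, 20.4), Slc2a2 (the liver glucose transporter, 21.9), Hal (histidine ammonia-lyase, 22.7 and -36.9), Gapdh (-21.1) and Cdh1 (periportal E-cadherin, 4 windows, to -59.4 points). Between sires and dams Gpi1 was called at 20.2 points and Slc25a15, the mitochondrial ornithine transporter of the urea cycle, at -33.9 points (51.8% against 85.6%, adjusted p = 1.13e-06), 2 windows beside 0.104% of all.

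The same Slc25a15 window, chr8:23492001-23492500, was called within B6 (-30.9 points), within C3 (-36.8 points) and between F1 males and F1 females (-22.1 points, 62.7% against 84.8%). Windows called within a strain between sires and dams included those of Gldc in B6 (-20.3 points) and of Slc1a2 (21.2) and Gpi1 (26.0) in C3. The Slc1a2 window is the one called between the strains, where it was at 74.7% ± 3.24 in B6 and 54.3% ± 14 in C3 (SD, n = 6). Between dams and F1 females none of the tested genes of the list had a called window (193 of 2052 at an unadjusted limma p below 0.05, beside 7.94% of all windows). The adjusted p was passed by 6 of 2052 windows, beside 0.181% of all. Of these 6, 2 had a higher level in dams (beside 0.0318%) and 4 a lower level (beside 0.149%). None of the 46 promoters of the listed genes was called in any comparison by limma's test at 10 points. Between the strains 3 of 46 passed the adjusted p, beside 12.2% of all promoters. At an unadjusted p below 0.05 there were 10 of 46 between the strains, beside 24.1% of all promoters, 3 between sires and dams (beside 8.57%), 4 between F1 males and females (beside 6.29%), 3 between dams and F1 females (beside 6.38%) and 4 between the crosses (beside 9.5%).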

How the data were processed

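The series holds whole-genome bisulfite sequencing of 24 livers, used here, and 12 FOXA1 chromatin immunoprecipitation samples, not analysed here. According to the study's methods and the processing notes, the authors base-called with CASAVA 1.8.2, aligned reads to mm9 with Bismark 0.7.8 and Bowtie 0.12.8, removed duplicates with a Bismark script, trimmed overlapping mates and merged libraries per animal. They deposited methylated and unmethylated counts per CpG and animal, without normalization, for CpGs that mm9 and the local assemblies of both strains share, and a table of single-nucleotide variants between the assemblies. Reads with a strain's variant can map less well to mm9, so depth is given by strain.

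Genes are those of GENCODE vM1 on mm9. Counts of the 18887127 autosomal CpGs, among 19751474 in all, were summed in 500-bp windows tiled along each chromosome, in promoters (1000 bp before to 500 bp after the start) and, added after the windows of Ass1 and G6pc had been seen, in gene bodies. Windows and gene bodies needed 5 CpGs, promoters 3, and all features 30 reads in every animal. Groups were fitted as 8 means with limma 3.58.1 (R 4.3.3), trended and robust, on log2((methylated + 1)/(unmethylated + 1)), with Benjamini-Hochberg adjustment over all features of a kind. SEs are on that log2 scale and differences are in percentage points. Calls needed an adjusted p below 0.05 and 20 points in windows or 10 in promoters, with no minimum in gene bodies. Single CpGs, kept where 3 or more of the 6 animals of both groups had 5 reads, were compared with a beta-binomial Wald test after the model of DSS, which itself was not run, whose p is a large-sample approximation, at an unadjusted threshold of 1e-05. The fits were tested on simulated data.

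The 9 members, the pathway and marker lists and the tests were chosen with earlier results of these data known. Named are all 9 members, their called windows, the lowest and the start window of each gene, and, picked after their values were seen, windows past the adjusted p. The lowest windows and the low stretches around the starts were read from windows of at least 3 CpGs. Same-numbered animals of different groups were compared through the correlation of their deviations from the group means, which averaged 0.0052 (-0.013 to 0.068). In 0 of 28 pairs of groups was every such correlation over 0.1, and the highest mean, 0.0335, was between C3B6F1 males and C3B6F1 females. Animals of a group share the same genotype, so families may leave little trace and low correlations cannot exclude pairing. The labels do not link the families, so the numbers were not taken to pair the animals. Pfkfb1, on the X chromosome, was left out, and the sequence at 1 gene start is not reported here. Alternatives covered the minimum numbers of CpGs and reads, the minimum difference, the pseudocount, the scale, the variance model, the window offset, the replicate block and the omission of each animal.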

Additional observations from a re-analysis of the deposited data

Results flagged for a closer look

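Promoter and gene body levels of the 9 genes were searched in each strain or cross of 6 animals for a lone animal, whose gap to the nearest other exceeds Dixon's critical value as a share of the range. Of 72 sets of values, 3 held one, and chance gives about 1 in 20. The Fbp1 gene body of C3 male 1 was at 45.4%, the lowest of the 6 C3 livers, with the next at 49.3%. The Asl promoter of C3 female 1 was at 54.2%, against 61.4% in the next C3 liver. The Arg1 gene body of B6C3F1 female 1 was at 53.1%, the highest of the 6 B6C3F1 livers, with the next at 50.7%.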

How the results depend on the processing

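Between the strains 34 windows of the members passed without a minimum difference (beside 6.63% of all windows), and between sires and dams 11 (beside 0.974%). Within B6 3 passed (beside 0.264%), within C3 3 (beside 0.525%), between F1 males and females 3 (beside 0.343%) and between dams and F1 females 13 (beside 0.181%). In the same order, 14, 7, 3, 3, 1 and 11 did at 10 points. With at least 2 CpGs per window, 2 windows each were called between the strains, between sires and dams and within C3. The shares of all windows at 10 points and at 2 CpGs are not given here, so these counts are not read as high or low. With at least 100 reads in every animal the counts were 0 in these comparisons, because the called windows hold as few as 64 and 72 reads in one animal. With windows shifted by 250 bp, 0 were called between the strains. Without a minimum, 2 of 9 promoters passed between the strains, beside 12.2% of all promoters. Leaving out single animals gave 1 to 2 called windows between the strains (2 without B6 male 2, B6 female 1, B6 female 2, C3 male 1 or C3 female 2), 0 to 1 between sires and dams and 0 to 1 promoters between the strains (0 without the animals named with each result), 0 to 1 windows within B6 (1 without B6 male 3, B6 female 1 or B6 female 2), 1 to 2 within C3 (2 without C3 female 2) and 0 to 1 between dams and F1 females (1 without C3B6F1 female 1). Gene bodies numbered 1 to 2 between the strains (2 without B6 male 3, B6 female 1, C3 male 1 or C3B6F1 male 3), 1 to 3 between sires and dams (3 without B6 male 3, C3 male 3 or C3B6F1 female 2), 0 to 1 between F1 males and females (1 without C3 female 3 or C3B6F1 female 1) and 1 to 2 between dams and F1 females (2 without B6C3F1 female 2 or C3B6F1 male 1). Of 2131 values of 73 windows, promoters and gene bodies under these alternatives, 1832 kept their side of the threshold, 299 changed side with the same direction and 0 changed direction.

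With the replicate block, in which the shared number was fitted as a term, 1 window each was called between the strains, between sires and dams and within C3 and 0 in each other comparison, as without it, and no promoter or gene body count changed. The windows of Ass1 at chr2:31374001-31374500 between the strains, at chr2:31369001-31369500 within B6 and at chr2:31329501-31330000 and chr2:31343501-31344000 between dams and F1 females no longer passed the adjusted p (0.0505, 0.0610, 0.0537 and 0.0625).

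Without the first 2000 bp the gene bodies were at 40.8% (Pck1), 67.6% (G6pc), 54.2% (Fbp1), 81.1% (Pklr), 65.6% (Ass1), 82.8% (Asl), 59.2% (Arg1) and 90.1% (Glul), a split chosen after the data were seen. With CpGs of at least 10 reads in every animal Fbp1 was at 50.5% and Glul at 71.1%, and averaging the percents of CpGs put Glul at 51.9% and turned its difference from the periportal mean from 6.48 to -0.18 points. Depth was lower in C3, and the Cps1 start holds few CpGs. Parents and F1 animals differ in breeding, genotype, origin and housing together, and sires and dams differ in sex together with pregnancy and nursing.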
